A study of Rattus norvegicus with 12 samples.

Results

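The UDP-glucuronosyltransferase genes Ugt1a1, Ugt1a6 and Ugt2b1 and the UDP-glucose dehydrogenase gene Ugdh were followed in rat liver through 4 of the 31042 probe sets that remained once control probe sets were left out. Probe sets were taken by gene annotation, whatever their values: 1370698_at is annotated to Ugt2b1 and 1367938_at to Ugdh, and 1370613_s_at and 1387759_s_at are each annotated to all 8 protein-coding Ugt1a genes. Those 8 genes lie on chromosome 9 in the GRCr8 assembly and share one end, so neither probe set tells Ugt1a1, which conjugates bilirubin, from Ugt1a6, which conjugates small planar phenols. The annotation gave no probe set to Ugt2a3, which is not analysed here. It also gave none to Ugt2b17, an older name that RefSeq lists for both Ugt2b15 and Ugt2b1. So 4 of the 6 listed genes had a probe set, but Ugt1a1 and Ugt1a6 only the shared ones and were not measured apart. All 4 probe sets were bright enough to be tested.

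Each array held the liver RNA of 1 male Sprague-Dawley rat, 10 weeks of age, from a study of triazole fungicides given by gavage, with a dose every 24 h and a total exposure of 72 h. Of the 4 groups of 3 rats, 2 received 300.0 mg/kg/day, of either myclobutanil or propiconazole, the third received triadimefon at 175.0 mg/kg/day, and the last was control, for which the labels do not state what was given. Values are the deposited scores on a log-like scale after quantile normalization. The base of that scale stays unknown, so differences are given in its own units and never as folds. The median probe set had a 95% interval of 0.141 units to either side of its difference, a precision limited by the number of arrays.

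Glucuronidation joins a sugar acid to bilirubin, steroids, bile acids and drugs, which makes them soluble enough to leave the liver in bile or blood. Ugdh makes the donor, UDP-glucuronate, from UDP-glucose in the cytosol, and the transferases use it inside the endoplasmic reticulum. Ugt1a proteins differ in their first exon, each with its own promoter, and share the remaining exons. In rodent liver, the nuclear receptors CAR and PXR, the dioxin receptor AhR and the factor NRF2 are known to raise transcription of several of these genes, and HNF1 drives them in hepatocytes.

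The 250 bases before the annotated starts of Ugt1a1, Ugt1a6 and Ugt2b1 are shown. The Ugt2b1 probe set and 1 of the 2 shared Ugt1a probe sets passed the test in all 3 comparisons with control. The other Ugt1a probe set passed in none. Which Ugt1a start was used cannot be read from the shared probe sets, and of the Ugt1a genes only the listed ones are shown. The sequences are RefSeq's for GRCr8, all on the plus strand, at chr9:96248893-96249142 for Ugt1a1, chr9:96194768-96195017 for Ugt1a6 and chr14:21378632-21378881 for Ugt2b1. Capitals mark matches, on either strand, to the short motifs GTTAAT (HNF1 half-site), GCGTG (dioxin response element core) and AGTTCA (a nuclear receptor half-site).
Ugt1a1: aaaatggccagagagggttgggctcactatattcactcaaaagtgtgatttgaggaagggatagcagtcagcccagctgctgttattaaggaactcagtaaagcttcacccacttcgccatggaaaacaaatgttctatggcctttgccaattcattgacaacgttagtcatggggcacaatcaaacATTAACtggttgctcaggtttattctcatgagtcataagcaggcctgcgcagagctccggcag
Ugt1a6: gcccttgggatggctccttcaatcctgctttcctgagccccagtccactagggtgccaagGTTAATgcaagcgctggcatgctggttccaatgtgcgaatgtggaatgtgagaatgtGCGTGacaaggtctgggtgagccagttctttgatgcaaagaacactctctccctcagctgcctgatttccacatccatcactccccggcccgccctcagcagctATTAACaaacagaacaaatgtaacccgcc
Ugt2b1: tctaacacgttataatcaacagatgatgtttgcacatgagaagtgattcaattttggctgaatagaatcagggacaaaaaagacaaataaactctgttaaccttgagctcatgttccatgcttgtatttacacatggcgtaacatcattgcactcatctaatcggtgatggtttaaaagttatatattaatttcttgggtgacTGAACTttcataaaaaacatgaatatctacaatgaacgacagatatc
In the Ugt1a1 window the HNF1 half-site spans bases 63 to 58 before the start. The Ugt1a6 window holds 2 HNF1 half-sites, at bases 190 to 185 and 29 to 24, and 1 GCGTG at bases 133 to 129. The Ugt2b1 window holds 1 AGTTCA, on the minus strand at bases 47 to 42. Neither AGGTCA, another nuclear receptor half-site, nor TGACNNNGC, the antioxidant response element core, was found in these 3 windows, and no marked match overlaps another. Of 33469 such windows in the rat genome, 6.45% hold GTTAAT, 25.9% GCGTG, 12.2% AGTTCA, 14.1% AGGTCA and 10.1% TGACNNNGC, so single matches of this kind are common.

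Ugt2b1, a transferase that conjugates testosterone, morphine and bisphenol A in rats, was higher in the livers of all 3 treated groups. Its scores were 2.81, 2.87 and 2.80 in myclobutanil livers, 2.67, 2.64 and 2.53 in propiconazole livers and 2.54, 2.54 and 2.79 in triadimefon livers, against 1.73, 1.32 and 2.09 in control livers. All 9 treated livers lay above all 3 control livers, and the control group was the most spread. Group means were 2.83 ± 0.0385 with myclobutanil, 2.61 ± 0.0741 with propiconazole, 2.62 ± 0.141 with triadimefon and 1.71 ± 0.388 in control (SD, n = 3 each). The difference from control was 1.12 ± 0.155 for myclobutanil, 0.90 ± 0.155 for propiconazole and 0.91 ± 0.155 for triadimefon (± SE; limma adjusted p = 0.0113, 0.0224 and 0.0220). Among 21730 tested probe sets, 9 had a larger rise with myclobutanil, 32 with propiconazole and 32 with triadimefon.

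The Ugt1a probe set 1370613_s_at also rose in each treated group, by less and with a narrow spread. It stood at 3.40, 3.36 and 3.46 in myclobutanil livers, 3.20, 3.18 and 3.20 in propiconazole livers and 3.25, 3.29 and 3.32 in triadimefon livers, against 2.79, 2.98 and 2.89 in control livers. No treated liver overlapped with a control liver. Means were 3.41 ± 0.0504 with myclobutanil, 3.19 ± 0.0118 with propiconazole, 3.29 ± 0.0351 with triadimefon and 2.89 ± 0.0981 in control (SD, n = 3 each). Differences from control were 0.52 ± 0.0591 for myclobutanil, 0.31 ± 0.0591 for propiconazole and 0.40 ± 0.0591 for triadimefon (± SE; limma adjusted p = 0.00404, 0.0315 and 0.0122).

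The second Ugt1a probe set, 1387759_s_at, did not pass the test in any comparison. Its scores were 2.62, 2.67 and 2.61 in myclobutanil livers, 2.28, 2.70 and 2.60 in propiconazole livers and 1.98, 2.72 and 2.63 in triadimefon livers, against 2.29, 1.94 and 1.91 in control livers. Only the myclobutanil group was clear of control, since propiconazole replicate 1 and triadimefon replicate 1 lay below the highest control liver. The differences were of the same sign as those of the first probe set, at 0.59 ± 0.183, 0.48 ± 0.183 and 0.40 ± 0.183 for myclobutanil, propiconazole and triadimefon (± SE; limma adjusted p = 0.112, 0.248 and 0.380). The SE was 0.183 here and 0.0591 at 1370613_s_at, and the probe sets of the same gene complex disagreed in their calls. With 1 array left out in turn, the 1387759_s_at differences ran from 0.51 to 0.71, from 0.40 to 0.61 and from 0.26 to 0.63 and none was called. The last 2 values are those without triadimefon replicate 2 and without triadimefon replicate 1.

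Ugdh, the enzyme that supplies UDP-glucuronate, showed smaller differences, none past the test. Its scores were 2.98, 2.70 and 2.88 in myclobutanil livers, 2.87, 2.75 and 2.97 in propiconazole livers and 2.76, 2.72 and 2.56 in triadimefon livers, against 2.47, 2.60 and 2.63 in control livers. The myclobutanil and propiconazole livers lay above every control liver, while triadimefon replicate 3 lay within the control range. The differences from control were 0.29 ± 0.0937 for myclobutanil, 0.30 ± 0.0937 for propiconazole and 0.11 ± 0.0937 for triadimefon (± SE; limma adjusted p = 0.123, 0.163 and 0.646). The 95% intervals ran from 0.08 to 0.49, from 0.09 to 0.50 and from -0.09 to 0.32.

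**Figure D1:**
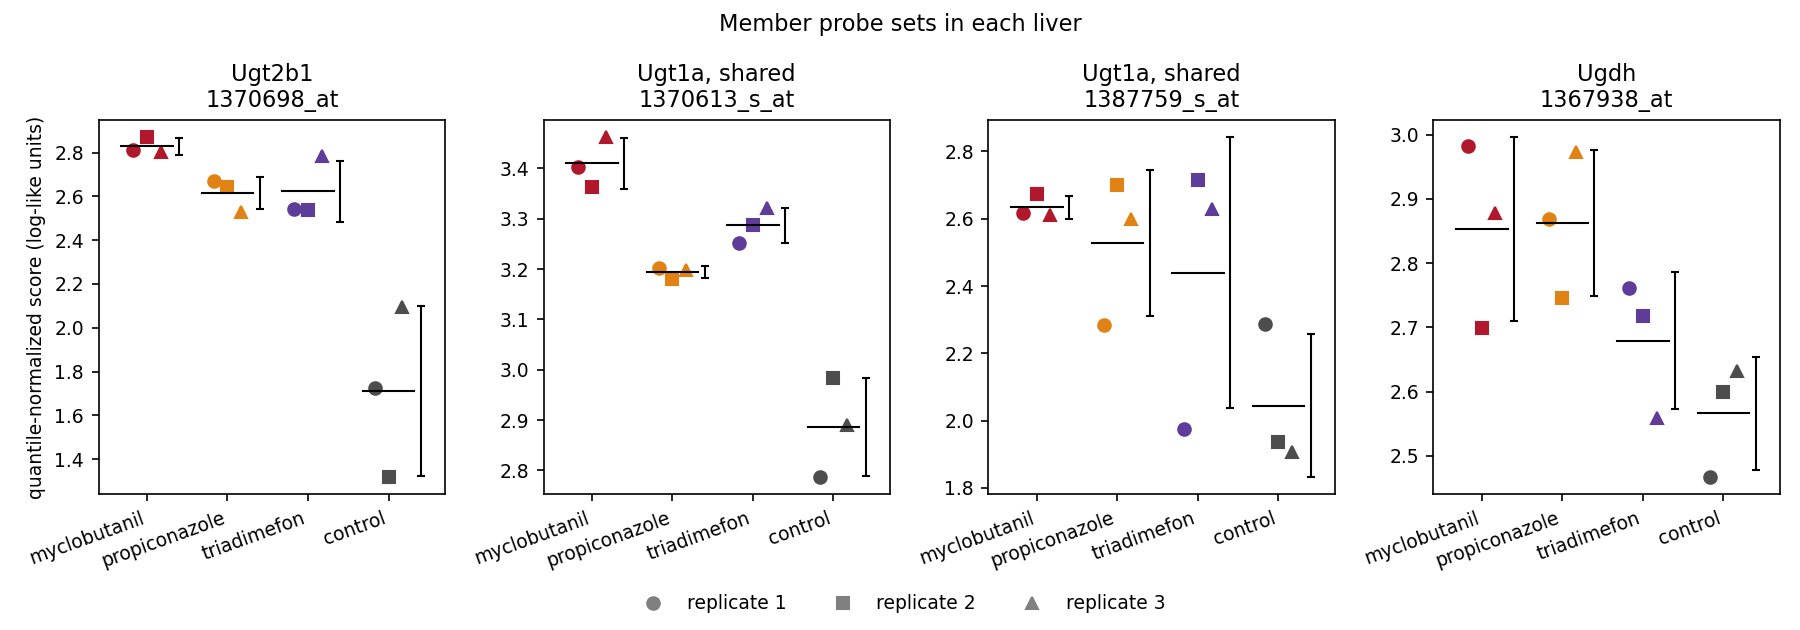
Quantile-normalized score (log-like units, vertical axis, each panel with its own range) of the 4 probe sets in each of the 12 livers, by group; symbols mark the replicate number, horizontal lines the group means and error bars ± 1 SD of 3 livers. All 9 treated livers lie above the 3 control livers for Ugt2b1 and for Ugt1a 1370613_s_at. Propiconazole replicate 1 and triadimefon replicate 1 lie within the control range for Ugt1a 1387759_s_at, as does triadimefon replicate 3 for Ugdh.

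Counted together, 2 of the 4 probe sets rose against control with each compound and 0 fell. Over all 21730 tested probe sets the called share was 1.82% with myclobutanil (224 higher, 1.03%, and 171 lower), 1.43% with propiconazole (176 higher, 0.81%, and 135 lower) and 0.769% with triadimefon (106 higher, 0.488%, and 61 lower). With median centring in place of quantile normalization the calls were split into 160 higher and 136 lower with myclobutanil (54.1% higher, and 56.7% after quantile normalization), 158 and 63 with propiconazole (71.5% and 56.6%) and 121 and 45 with triadimefon (72.9% and 63.5%). The median difference over the 4 probe sets was 0.56 with myclobutanil, 0.40 with propiconazole and 0.40 with triadimefon, beside -0.01 over all tested probe sets in each comparison. Treated and control livers did not overlap, with treated higher, for 4 of 4 probe sets with myclobutanil, 3 of 4 with propiconazole and 2 of 4 with triadimefon, where 10.2%, 12.1% and 12.5% of all tested probe sets did so. The 3 comparisons share the same control livers and are not independent of each other. The genes were listed with earlier results of these data known, so these counts give no independent evidence.

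These calls depended on how arrays were put on one scale: under median centring Ugt1a 1370613_s_at lost all 3 of its calls and Ugt2b1 lost 2 of 3. With each array centred on its median, the Ugt1a 1370613_s_at differences were 0.27, 0.10 and 0.23 for myclobutanil, propiconazole and triadimefon, and none was called (limma adjusted p = 0.403, 0.847 and 0.611). The differences of 1387759_s_at were then 0.45, 0.44 and 0.35, again not called (limma adjusted p = 0.230, 0.337 and 0.486). In the values as deposited, each treated group overlapped with control on Ugt1a 1370613_s_at. Scores of that probe set were 3.73, 3.15 and 3.06 in myclobutanil livers and 3.02, 3.05 and 3.25 in propiconazole livers. Triadimefon livers stood at 3.31, 3.29 and 3.14, against 2.75, 3.02 and 3.32 in control livers. The scores that bound the brightest 1% of each array differed as well, from 2.32 on myclobutanil replicate 3 to 2.95 on control replicate 3. Ugt2b1 kept its size under median centring, at 0.97, 0.84 and 0.86, and its call with myclobutanil, while the calls with propiconazole and triadimefon were lost (limma adjusted p = 0.0445, 0.0742 and 0.0830). Ugdh under median centring differed from control by 0.09 with myclobutanil, 0.15 with propiconazole and -0.01 with triadimefon and was not called.

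Leaving out single arrays ended some of these calls. With myclobutanil, both Ugt2b1 and Ugt1a 1370613_s_at were called in 6 of 6 such fits, while a fit on only the myclobutanil and control arrays ended both calls (limma adjusted p = 0.129 and 0.111). Without myclobutanil replicate 1, an array that stood apart, the differences were 1.10 and 0.52 (limma adjusted p = 0.0152 and 0.00636). Every fit with 1 array left out kept quantile normalization. The medians of the other 11 arrays ranged over 0.0370, and median centring without myclobutanil replicate 1 was not run. With propiconazole, Ugt2b1 was called only without control replicate 3 (limma adjusted p = 0.0185) and missed the threshold without any one of control replicates 1 and 2 or propiconazole replicates 1, 2 and 3 (0.0692, 0.0574, 0.0849, 0.0567 and 0.0782). Ugt1a 1370613_s_at missed it with propiconazole in all 6 fits, at limma adjusted p = 0.103, 0.0614 and 0.124 for control replicates 1, 2 and 3 left out and 0.119, 0.0706 and 0.122 for propiconazole replicates 1, 2 and 3. With triadimefon, Ugt2b1 was called without control replicate 2 or 3 (limma adjusted p = 0.0472 and 0.0209) and not without control replicate 1 or triadimefon replicate 1, 2 or 3 (0.0915, 0.0668, 0.0788 and 0.100). Ugt1a 1370613_s_at was called with triadimefon without control replicate 2 or triadimefon replicate 1 (limma adjusted p = 0.0338 and 0.0491) and not without control replicate 1 or 3 or triadimefon replicate 2 or 3 (0.0559, 0.0701, 0.0683 and 0.0621). The sizes stayed within 0.92 to 1.27, 0.70 to 1.07 and 0.71 to 1.07 for Ugt2b1, and within 0.47 to 0.57, 0.26 to 0.35 and 0.35 to 0.44 for Ugt1a, in the order myclobutanil, propiconazole and triadimefon.

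**Figure D2:**
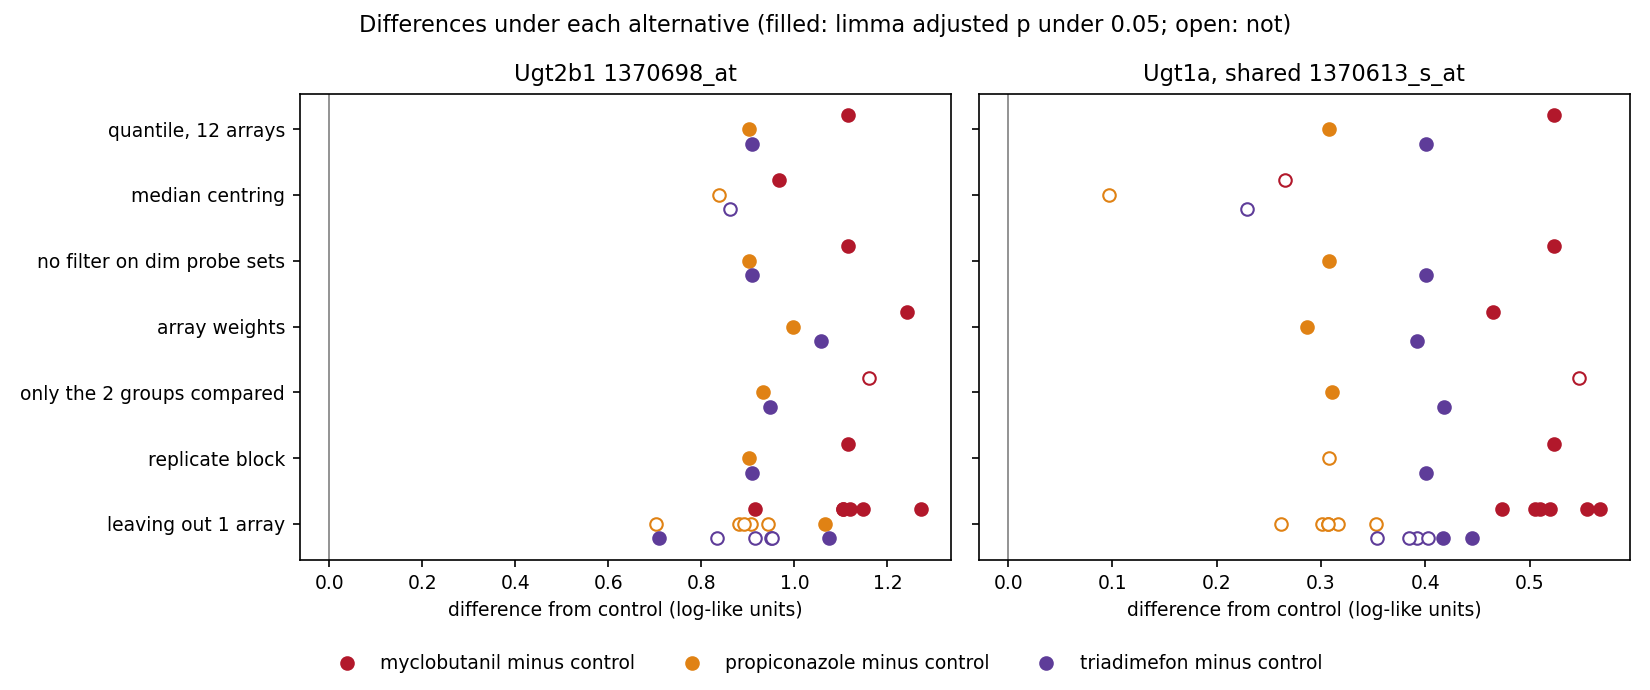
Difference from control (log-like units, horizontal axis) of Ugt2b1 1370698_at and Ugt1a 1370613_s_at under each setting of the fit, listed down the vertical axis, for the 3 compounds; filled points have a limma adjusted p under 0.05. Ugt2b1 stays between 0.70 and 1.27 in every fit drawn, while Ugt1a lies between 0.10 and 0.27 under median centring and has no call there.

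Myclobutanil and propiconazole were given at the same dose and can be set against each other; both carry a triazole ring, myclobutanil with a nitrile group and propiconazole with a dioxolane ring. For this 1 pair, 0 of the 4 probe sets differed by limma at an adjusted p under 0.05, as did 0 of all 21730 tested probe sets (0%). Before adjustment, 1 of the 4 and 2200 of all 21730 (10.1%) had a limma p under 0.05. The 1 was Ugt1a 1370613_s_at, higher with myclobutanil by 0.22 ± 0.0591 (95% interval 0.09 to 0.35; limma adjusted p = 0.338), with no overlap between the 3 livers of each group. Ugt2b1 differed by 0.21 (interval -0.13 to 0.55; limma adjusted p = 0.594), also without overlap, and 6.31% of all tested probe sets were higher with myclobutanil in that way. Ugt1a 1387759_s_at differed by 0.11 (interval -0.29 to 0.51) and Ugdh by -0.01 (interval -0.22 to 0.20). These intervals leave room for differences of either sign at 3 of the 4 probe sets. Triadimefon was given at a lower dose and no comparison with the other compounds was made.

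Among the other transferase genes of the array, none passed the test in any comparison, although single alternatives called 3 of them. The family had 10 further probe sets, 8 of them bright enough to test; both probe sets of Ugt8, a ceramide galactosyltransferase better known from myelin, were left out as dim. Of these 8, 2 with myclobutanil, 0 with propiconazole and 3 with triadimefon had a limma p under 0.05 against control before adjustment, shares of all tested probe sets being 21.1%, 14.5% and 13.4%. All 8 belong to genes that share a cluster on chromosome 14 in GRCr8 with Ugt2b1, where Ugt2b10 lies next to Ugt2b1 and Ugt2b34l1 after it. The Ugt2b10 probe set stood at 2.50, 2.26 and 1.61 in myclobutanil livers, 2.03, 1.80 and 2.02 in propiconazole livers and 2.15, 2.01 and 2.13 in triadimefon livers, against 1.57, 1.75 and 1.69 in control livers. Only myclobutanil replicate 3 overlapped with control, and the differences of 0.45 ± 0.180, 0.28 ± 0.180 and 0.43 ± 0.180 were not called (± SE; limma adjusted p = 0.183, 0.515 and 0.328).

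Ugt2b35 differed from control by 0.08 ± 0.0607, 0.09 ± 0.0607 and 0.15 ± 0.0607 with myclobutanil, propiconazole and triadimefon (± SE; limma adjusted p = 0.441, 0.557 and 0.326). Ugt2b34l1 differed by 0.27, 0.16 and 0.24, and Ugt2a1, known from olfactory epithelium, by 0.21, 0.21 and 0.16. With array weights, Ugt2b10, Ugt2b34l1 and Ugt2a1 were called with myclobutanil (0.52, 0.44 and 0.42; limma adjusted p = 0.0291, 0.00488 and 0.0248) and Ugt2b34l1 with triadimefon (0.29; 0.0439). With myclobutanil, Ugt2b10 was called without myclobutanil replicate 3 (0.73; limma adjusted p = 0.0252) and Ugt2b34l1 without myclobutanil replicate 1 (0.41; 0.0372). A fit on only the triadimefon and control arrays called Ugt2b10 (0.44, limma adjusted p = 0.0350). Under median centring the Ugt2b35 differences changed sign, to -0.17 with myclobutanil and -0.11 with propiconazole, and were not called (limma adjusted p = 0.536 and 0.794). With triadimefon the lowest Ugt2b35 difference over the alternatives was -0.01. Ugt2b15 and Ugt2b7 lay nearest to 0 with myclobutanil, with 95% intervals from -0.30 to 0.29 and from -0.09 to 0.08. The median difference over the 8 probe sets was 0.04 with myclobutanil, 0.07 with propiconazole and 0.14 with triadimefon. It lay below the 0.56, 0.40 and 0.40 of the 4 probe sets above. These are descriptions, and no test between the 2 sets was run. The 4 belong to genes listed with earlier results of these data known, so the gap between the sets is no independent evidence. Ugt2b15, for which the listed Ugt2b17 is an older name, was counted among the 8.

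**Figure D3:**
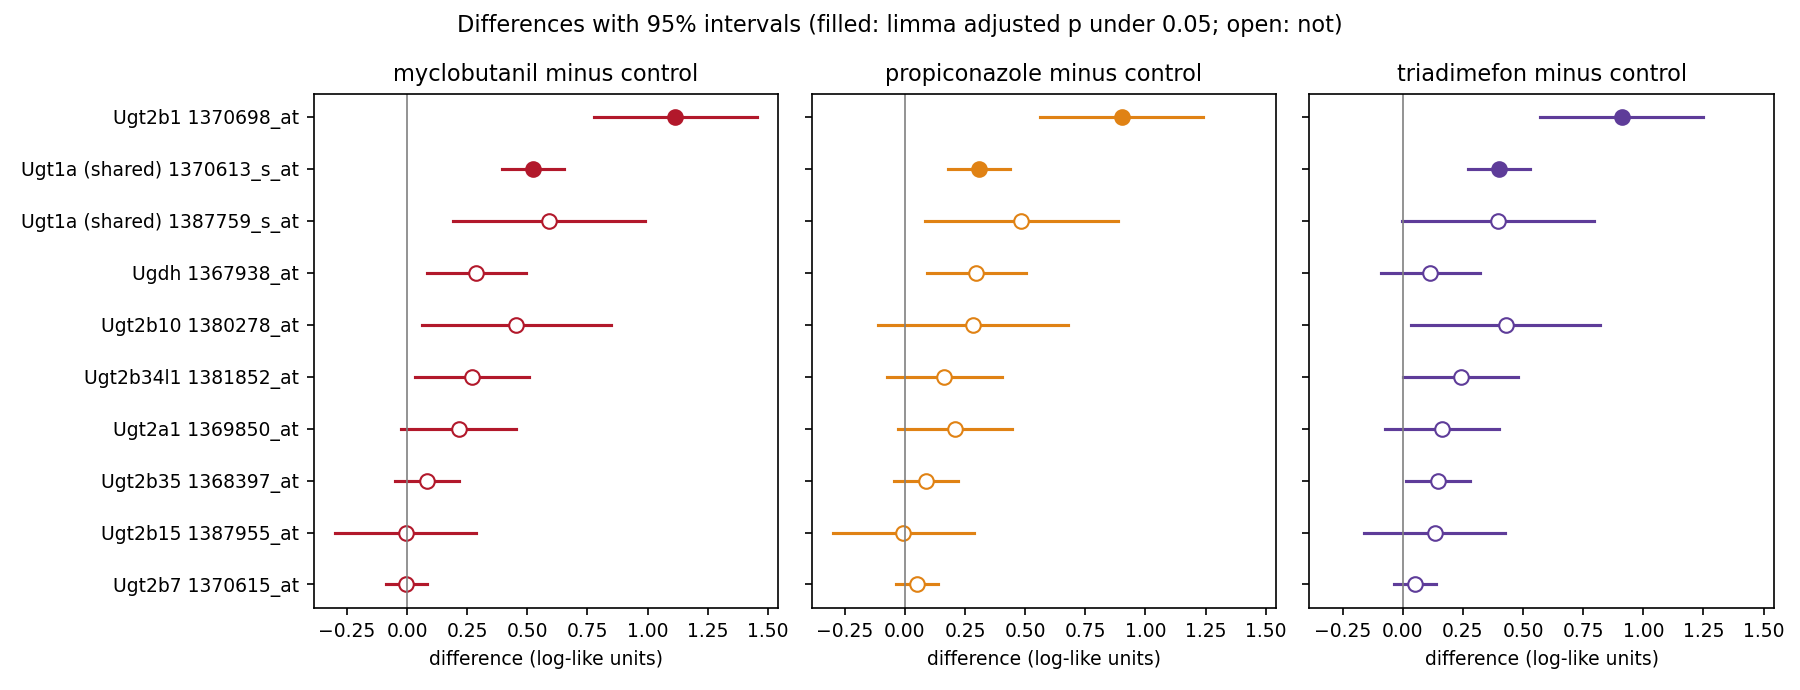
Difference from control (log-like units, horizontal axis) with 95% intervals for Ugdh and the tested glucuronosyltransferase probe sets other than those of Ugt2b, 1 panel per compound; filled points have a limma adjusted p under 0.05. Ugt2b1 and Ugt1a 1370613_s_at are the 2 filled points in each panel. The Ugt2b15, Ugt2b7 and Ugt2a1 intervals include 0 in every panel. The Ugt2b35 interval includes 0 with myclobutanil and propiconazole. With propiconazole those of Ugt2b10 and Ugt2b34l1 also do, and with triadimefon those of Ugdh and Ugt1a 1387759_s_at.

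Ugt2b, an androsterone-conjugating transferase whose activity is known to differ between individual Wistar rats, was high in some livers and low in others within every group. Probe set 1387825_at read 1.20, 2.88 and 0.31 in myclobutanil livers, 0.39, 2.61 and 2.57 in propiconazole livers and 0.49, 0.44 and 2.78 in triadimefon livers, against 0.29, 2.67 and 2.80 in control livers. Probe set 1385247_at read -0.51, 1.91 and -0.52 in myclobutanil livers, -0.48, 1.30 and 1.29 in propiconazole livers and -0.47, -0.49 and 1.41 in triadimefon livers, against -0.50, 1.51 and 1.77 in control livers. The same 6 livers were high on both: myclobutanil replicate 2, propiconazole replicates 2 and 3, triadimefon replicate 3 and control replicates 2 and 3. The widest gap between neighbouring livers was 1.37 on 1387825_at and 1.76 on 1385247_at, each with 6 livers below and 6 above. Myclobutanil replicate 1 was the one low liver well above the rest on 1387825_at, at 1.20, and stood with them on 1385247_at.

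Only 14 and 20 of the 21730 tested probe sets had a wider range over the 12 livers than 1387825_at and 1385247_at. Each group held both high and low livers, so the differences from control were small beside their error: on 1387825_at they were -0.46, -0.06 and -0.69 for myclobutanil, propiconazole and triadimefon, with an SE of 0.919 (limma adjusted p = 0.794, 0.988 and 0.802).

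**Figure D4:**
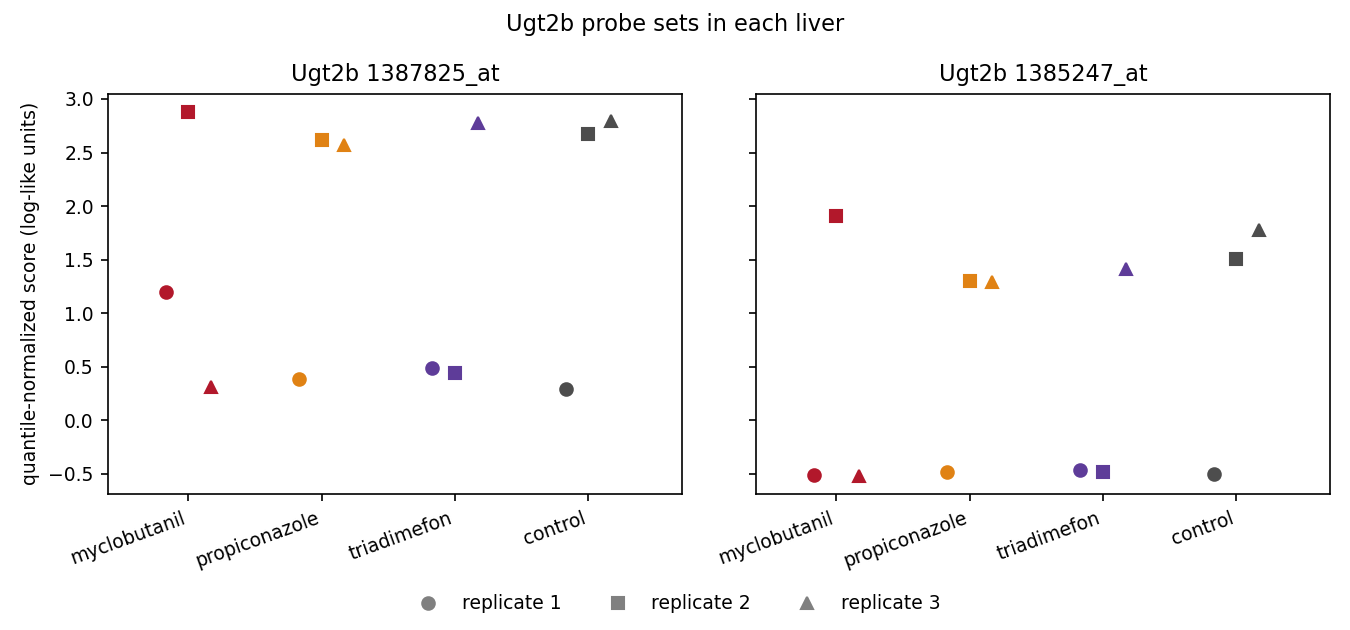
Quantile-normalized score (log-like units, vertical axis) of the 2 Ugt2b probe sets in each of the 12 livers, by group, with symbols for the replicate number. On both probe sets 6 livers lie above and 6 below an empty interval, 1.37 units wide on 1387825_at and 1.76 on 1385247_at, and every group has livers on both sides.

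Few genes around the donor and the products of glucuronidation passed the test. Of 10 tested genes of UDP-glucuronate supply (12 listed), 1 rose with myclobutanil and 0 changed with propiconazole or triadimefon; median differences were 0.15, 0.03 and 0.09, beside -0.01, -0.01 and -0.02 over all 11843 tested genes. Of these 11843 genes, against which each list below is also read, 151, 118 and 66 rose, 116, 81 and 33 fell, and 5360, 5202 and 5078 had differences above 0 with myclobutanil, propiconazole and triadimefon. The riser was Nme2, a nucleoside diphosphate kinase that regenerates UTP, at 2.47, 2.49 and 2.58 in myclobutanil livers against 2.22, 2.04 and 2.18 in control livers. Its difference was 0.37 ± 0.0686 (limma adjusted p = 0.0282), and 0.19 and not called under median centring (0.364); with 1 array left out it was called in 2 of 6 fits. Its differences with propiconazole and triadimefon were 0.15 and 0.11 (limma adjusted p = 0.342 and 0.521).

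Of 9 tested genes that release or use up free glucuronate (9 listed), 1 fell with myclobutanil and 0 changed with the other compounds, with medians of -0.25, -0.18 and -0.12 for myclobutanil, propiconazole and triadimefon. Gulo, the last enzyme of vitamin C synthesis from glucuronate in rats, was the one. Its scores were 1.27, 1.69 and 1.10 in myclobutanil livers, 1.85, 2.14 and 1.86 in propiconazole livers and 1.81, 1.83 and 1.92 in triadimefon livers, against 2.45, 2.24 and 2.33 in control livers. All treated livers lay below the control livers, and the myclobutanil livers below all others. Gulo fell by 0.99 ± 0.139 with myclobutanil (± SE; limma adjusted p = 0.0115), and its differences with propiconazole and triadimefon were -0.39 and -0.49 (0.216 and 0.158). The myclobutanil call was kept in 5 of 6 fits with 1 array left out.

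Transport of glucuronides was represented by 7 tested genes of 8 listed, of which 1 rose with myclobutanil, 0 changed with the others, and medians were 0.15, -0.14 and 0.18. Abcc3, which exports glucuronides from hepatocytes into blood, stood at 0.62, 0.76 and 0.69 in myclobutanil livers, 0.35, 0.29 and 0.54 in propiconazole livers and 0.27, 0.74 and 0.33 in triadimefon livers, against 0.04, -0.02 and -0.03 in control livers. Every treated liver was above every control liver. The differences were 0.69 ± 0.107, 0.40 ± 0.107 and 0.45 ± 0.107, of which the first was called (± SE; limma adjusted p = 0.0133, 0.109 and 0.0917) and kept its call in 4 of 6 fits with 1 array left out. Abcc2, the exporter into bile, had differences of 0.30, 0.52 and 0.37, none called; it was named after its values were seen.

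Bilirubin is conjugated mainly by Ugt1a1, and 6 of 7 listed genes of its formation and binding were tested: 2 rose with myclobutanil, 3 with propiconazole and 1 with triadimefon, 0 fell, and medians were 0.16, 0.27 and 0.07. Hmox1, which opens heme on the way to bilirubin, stood at 2.01, 1.28 and 2.48 in myclobutanil livers, 2.69, 2.24 and 2.92 in propiconazole livers and 1.42, 2.29 and 1.86 in triadimefon livers, against 0.86, 0.95 and 0.76 in control livers. No treated liver overlapped with control. Hmox1 rose by 1.76 ± 0.290 with propiconazole, called in 1 of 6 fits with 1 array left out, while the differences of 1.06 with myclobutanil and 1.0 with triadimefon were not called (± SE; limma adjusted p = 0.0199, 0.0841 and 0.165 in that order).

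The biliverdin reductase gene Blvrb rose by 0.39 ± 0.0824 with myclobutanil and 0.49 ± 0.0824 with propiconazole and differed by 0.14 with triadimefon (± SE; limma adjusted p = 0.0417, 0.0218 and 0.510); with 1 array left out its calls held in 1 of 6 and 0 of 6 fits, and median centring ended the first (0.0689). Gsta3, a glutathione transferase of a class that also binds bilirubin, rose with all 3 compounds, by 1.73 ± 0.179, 1.30 ± 0.179 and 1.38 ± 0.179 (limma adjusted p = 0.00358, 0.00954 and 0.0101), and kept its call in 6, 5 and 3 of 6 such fits.

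Of the receptors and factors known to control these transferases, 11 of 12 listed were tested and 0 changed with any compound by limma, with medians of -0.06, 0.04 and 0.02. Before adjustment 1, 2 and 1 of the 11 had a limma p under 0.05 with myclobutanil, propiconazole and triadimefon, beside 2778, 1929 and 1753 of all 11843 tested genes. They were Nr1i3 with myclobutanil, Ppara and Nr1h4 with propiconazole and Onecut1 with triadimefon; Ppara and Nr1h4 were named after their values were seen.

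Nr1i3, which encodes CAR, stood at -0.09, 0.07 and -0.08 in myclobutanil livers, 0.26, 0.62 and 0.19 in propiconazole livers and 0.09, 0.26 and 0.13 in triadimefon livers, against 0.99, 0.12 and 0.25 in control livers. Control replicate 1 was the highest of the 12 livers. The differences from control were -0.49, -0.10 and -0.30 with myclobutanil, propiconazole and triadimefon (limma adjusted p = 0.172, 0.866 and 0.537), and without control replicate 1 they were -0.22, 0.17 and -0.03. Onecut1, a liver transcription factor, stood at -0.02, 1.31 and 0.60 in myclobutanil livers, 0.76, 0.67 and 0.52 in propiconazole livers and 0.77, 1.09 and 0.87 in triadimefon livers, against 0.12, 0.19 and 0.28 in control livers. The myclobutanil livers were the most spread, with the highest and the lowest value of all 12. The Onecut1 differences were 0.43, 0.45 and 0.71 (limma adjusted p = 0.330, 0.432 and 0.235). With myclobutanil the difference was 0.77 without myclobutanil replicate 1, where it was called (limma adjusted p = 0.0427), and 0.09 without myclobutanil replicate 2. Onecut1 was also called with array weights for myclobutanil and triadimefon (1.02 and 0.71; limma adjusted p = 0.00350 and 0.0253), and in fits on only the 2 groups compared for propiconazole and triadimefon (0.45 and 0.72; 0.0250 and 0.0101).

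Known target genes of the same receptors were read beside the transferases. For CAR and PXR, 14 of 17 listed targets were tested: 6 rose with myclobutanil, 5 with propiconazole and 5 with triadimefon, 0 fell, all 14 had differences above 0 in each comparison, and medians were 0.60, 0.45 and 0.45. Over all 11843 tested genes the counts of genes that rose were 151, 118 and 66, and 5360, 5202 and 5078 lay above 0. Between myclobutanil and propiconazole, 8 of the 14 lay above 0, and 5599 of all genes. Cyp3a23-3a1, a steroid-metabolizing cytochrome P450, rose by 0.41, 0.34 and 0.41 (SE 0.0595 each; limma adjusted p = 0.0115, 0.0240 and 0.0122). Under median centring its differences were 0.11, 0.12 and 0.22 and none was called (0.764, 0.833 and 0.667), and with 1 array left out its calls held in 5, 1 and 1 of 6 fits. Por, the reductase that feeds electrons to cytochromes P450, rose by 0.64, 1.04 and 1.24 (SE 0.127 each; limma adjusted p = 0.0362, 0.00642 and 0.00476), and median centring ended its call with myclobutanil (0.0663).

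The carboxylesterase gene Ces2c rose by 1.17, 1.48 and 1.19 (SE 0.176 each; limma adjusted p = 0.0118, 0.00582 and 0.0123), and Aldh1a1, which oxidizes retinaldehyde, by 1.0, 1.13 and 0.93 (SE 0.144 each; 0.0115, 0.00661 and 0.0146). Calls held in 3, 6 and 6 of 6 fits with 1 array left out for Por, in 4, 6 and 1 for Ces2c and in 5, 6 and 1 for Aldh1a1. Gsta3 and Abcc3, given above, also stand in this list.

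AhR targets numbered 5 tested of 7 listed, with 2 higher with myclobutanil, 1 with propiconazole and 0 with triadimefon, 0 lower, and medians of -0.0024, 0.23 and 0.21. Differences lay above 0 for 2, 3 and 3 of the 5, beside 5360, 5202 and 5078 of all 11843 tested genes. Cyp1a1, a cytochrome P450 that AhR controls, rose by 0.79 ± 0.176 with myclobutanil and 0.96 ± 0.176 with propiconazole and differed by 0.43 with triadimefon (limma adjusted p = 0.0492, 0.0278 and 0.318). The quinone reductase gene Nqo1 rose by 0.70 ± 0.101 with myclobutanil and differed by 0.42 and 0.26 with propiconazole and triadimefon (limma adjusted p = 0.0115, 0.0746 and 0.30). Median centring ended the myclobutanil calls of both (0.0770 and 0.0559), and with 1 array left out they held in 2 of 6 and 5 of 6 fits; the propiconazole call of Cyp1a1 held in 1 of 6.

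NRF2 targets numbered 9 tested of 12 listed, with 2 higher with myclobutanil (Nqo1 and Gsr), 1 with propiconazole (Hmox1) and 0 with triadimefon, 0 lower, and medians of 0.36, 0.45 and 0.26. Of the 9, 9, 9 and 8 had differences above 0 in the same order, beside 5360, 5202 and 5078 of all 11843 tested genes. The glutathione reductase gene Gsr rose by 0.33 ± 0.0677 with myclobutanil and differed by 0.16 and 0.01 with propiconazole and triadimefon (limma adjusted p = 0.0405, 0.294 and 0.973); its call held in 0 of 6 fits with 1 array left out.

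**Figure D5:**
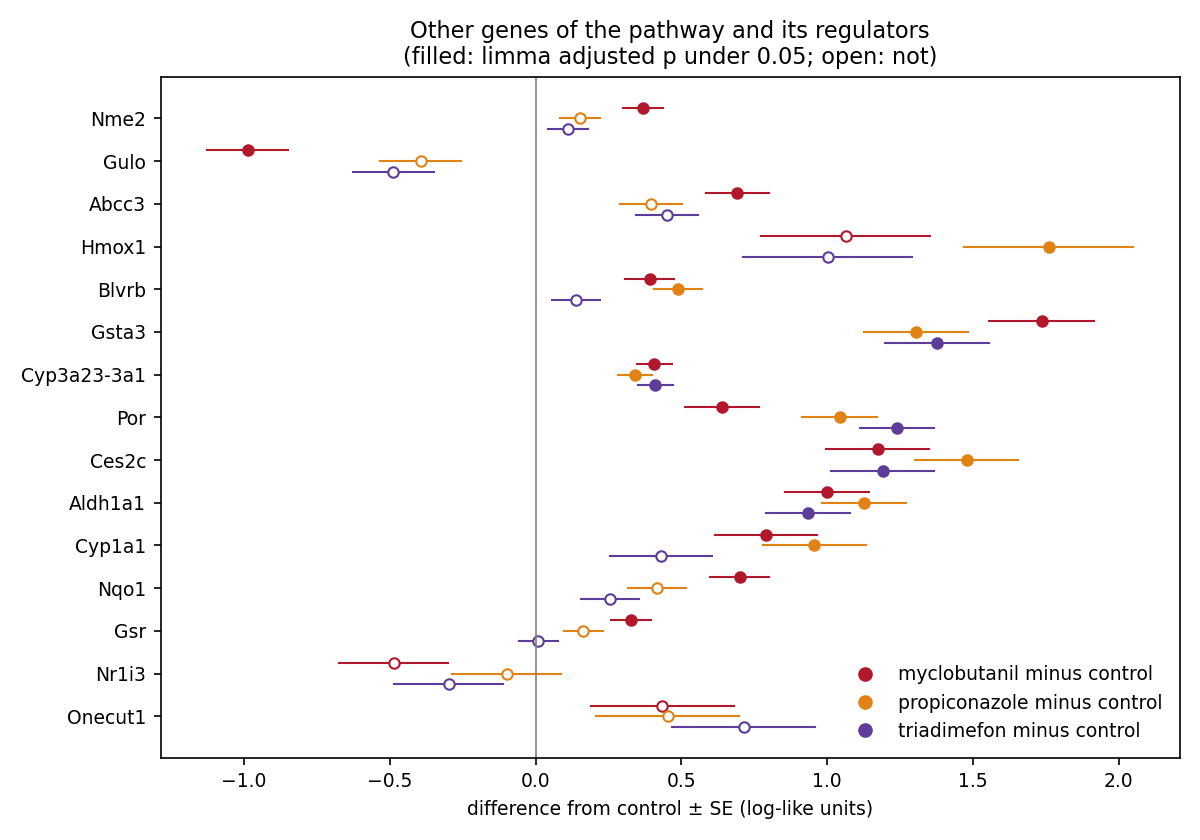
Difference from control ± SE (log-like units, horizontal axis) of named genes of UDP-glucuronate supply, glucuronate use, transport, bilirubin formation, receptor targets and regulators, for the 3 compounds; filled points have a limma adjusted p under 0.05. Gulo is the gene drawn with a called fall, with myclobutanil, and Gsta3, Cyp3a23-3a1, Por, Ces2c and Aldh1a1 are called with all 3 compounds.

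The genes whose profile over the 12 livers was nearest to each probe set were found by root mean square distance after each profile had its own mean subtracted. Nearest to Ugt2b1 were Ptp4a1, at 0.245 units, Aldh1a1, at 0.245, and Ndufaf4, at 0.270, beside a root mean square of 0.464 for Ugt2b1 around its own mean. Nearest to Ugt1a 1370613_s_at were Cyp3a23-3a1, at 0.0765, Zfp654, at 0.0814, and Bmt2, at 0.0824, beside 0.199 for the probe set itself. Cyp3a23-3a1 and this Ugt1a probe set also both lost all 3 calls under median centring. For Ugdh, Pum3 at 0.0511, Sar1b at 0.0654 and Utp14a at 0.0676 were nearest, beside 0.156.

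The arrays differed in ways that stand beside these results. Myclobutanil replicate 1 had a deposited median of 0.157 against 0.0182 to 0.0552 on the other 11 arrays, and a median correlation with the other arrays of 0.927 against 0.962 to 0.982. Summed scores of 8 tested Kupffer cell markers (10 listed) ran from 1.59 to 6.26 in myclobutanil livers, 8.47 to 9.52 in propiconazole livers and 8.31 to 9.32 in triadimefon livers, against 8.96 to 10.1 in control livers; 5 of the 8 fell with myclobutanil and 0 changed with the others. Their part in the myclobutanil results was not tested, and in whole liver fewer cells of a type and less RNA per cell cannot be told apart.

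The sums of 9 hepatocyte markers were 27.4 to 29.6 with myclobutanil, 29.7 to 30.5 with propiconazole and 29.4 to 30.3 with triadimefon, against 28.9 to 30.03 in control, and 0, 1 and 0 of the 9 rose. The myclobutanil sums lay below all propiconazole sums and overlapped with control. One of the 9, the albumin gene Alb, had a group mean of 4.03 in every group after quantile normalization, with differences of 0, so it can show no change. Of 8 stellate cell markers, 1 rose and 1 fell with myclobutanil and 1 fell with propiconazole. Of 5 endothelial markers, 1 fell with myclobutanil and 2 with propiconazole. No marker of cholangiocytes (3 tested) or leukocytes (6 tested) changed with any compound, and no stellate or endothelial marker did with triadimefon. Cholangiocyte sums were 0.856 to 0.965 with myclobutanil, 0.866 to 1.52 with propiconazole and 0.664 to 1.37 with triadimefon, against 0.450 to 0.674 in control, so that the myclobutanil and propiconazole livers lay above every control liver. The 3 markers did not all go this way: 1, 2 and 2 of them had differences above 0 with myclobutanil, propiconazole and triadimefon. Their median differences were -0.02, 0.04 and 0.09. Endothelial sums were 4.19 to 4.70, 3.75 to 4.48 and 4.51 to 5.05 in the same order, against 4.84 to 5.61 in control, with the myclobutanil and propiconazole livers below every control liver. Stellate sums (4.23 to 7.12, 4.24 to 4.69 and 4.89 to 8.26, against 4.30 to 5.79 in control) and leukocyte sums (0.0686 to 0.434, -0.142 to 0.366 and 0.136 to 0.393, against 0.185 to 0.580 in control) overlapped with control. The part of these cell types in the results was not tested. The GAPDH 3' minus 5' score, a sign of RNA quality, was 0.624 ± 0.128 with myclobutanil, 0.435 ± 0.106 with propiconazole and 0.587 ± 0.212 with triadimefon, against 0.659 ± 0.252 in control (SD, n = 3 each). For actin the same score was 0.807 ± 0.145, 0.636 ± 0.0925 and 0.838 ± 0.200 with these compounds, against 0.682 ± 0.202 in control (SD, n = 3 each), so that for actin 2 of the 3 treated means were above control and for GAPDH all 3 were below.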

How the data were processed

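Total liver RNA of 12 rats was hybridized to 1 Affymetrix Rat Genome 230 2.0 array each, per the labels' protocols. The authors deposited 1 log-like score per probe set, from -1.00 to 4.83; its probe-level method, normalization, log base and centring are unknown, since no source used here gives them. No pair of arrays held identical values. Direction was taken as higher score for more RNA, since the spike-in cre lay 2.42 to 3.39 units above bioB on every array.

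Arrays were quantile normalized because their medians ranged over 0.138, more than the typical SD within groups (median 0.0736), a condition set in the test design. That range rests on myclobutanil replicate 1; the medians of the other 11 arrays ranged over 0.0370. Of 31099 probe sets, 57 control probe sets and the 30% with the lowest mean (9312) were left out, which left 21730. Each was fitted with limma 3.58.1 in R 4.3.3 on the 4 group means, with 8 residual degrees of freedom and an intensity trend, and called, in either direction, at a Benjamini-Hochberg adjusted p under 0.05 over all 21730. The test was also checked on data simulated with known shifts, independent noise and a constant offset per array. Such data hold no arrays whose scores differ in spread, so the check cannot decide between the scalings. Figures used matplotlib 3.10.9 with Python 3.11.15.

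GEO's annotation of the platform may be outdated; of the probe sets, 20826 had 1 gene, 436 had more and 9780 had no gene, and RefSeq GRCr8 gave current symbols for 20758 by Entrez ID. A listed gene was represented by its single-gene probe set with the highest mean. The text names every probe set of the member genes, the genes of each list called in at least 1 comparison with control or, with none, the 2 with the smallest p, and the 3 genes nearest in profile; the further transferase probe sets and Abcc2 were named after their values were seen. Members and gene lists were chosen with earlier results of these data known, so the lists give no independent evidence. The replicates are separate rats, per the labels, and no batch is labelled. Alternatives were median centring, no filter on dim probe sets, array weights, fits on only the arrays compared, replicate number as a block, and leaving out each array.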

Additional observations from a re-analysis of the deposited data

How the results depend on the processing

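Called probe sets numbered 395 for myclobutanil, 311 for propiconazole and 167 for triadimefon against control and 0 for myclobutanil against propiconazole. With the replicate number as a block they were 180, 121, 87 and 0. Deviations of same-numbered arrays from their group means correlated between -0.494 and 0.481. Differently numbered arrays were not compared, so whether the numbers mark any pairing was not tested. The block left 1 member probe set called with propiconazole (Ugt1a 1370613_s_at lost its call, limma adjusted p = 0.0670) and 2 with the others. Array weights gave 1669, 1313, 1028 and 344 calls, with weights from 0.0958 (myclobutanil replicate 1) to 4.63 (myclobutanil replicate 2) in a fit that stopped before its tolerance, and added Ugt1a 1387759_s_at with myclobutanil (0.65, limma adjusted p = 0.0323). Fits on only the 2 groups compared gave 9, 645, 609 and 0 calls; with myclobutanil 0 member probe sets were then called, at 1.16 for Ugt2b1 and 0.55 for Ugt1a 1370613_s_at (limma adjusted p = 0.129 and 0.111). Median centring gave 296, 221, 166 and 1 calls and left 1, 0, 0 and 0 member probe sets called. With 1 array left out in turn, counts ran from 30 to 924, 36 to 170, 6 to 60 and 0 to 29, and member probe sets called from 2 to 2, 0 to 1, 0 to 2 and 0 to 0. Among the tested family probe sets and the named list genes, none changed sign while called. Signs were not followed for the other probe sets. With no filter on dim probe sets, counts were 304, 225, 155 and 0. The number of arrays and the unknown scale of the scores limit precision; the cause of these shifts was not tested.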
